A study of Mus musculus with 617 samples.

Results

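The genes described here are 9 microRNA genes of the mouse Mir290 and Mir302 clusters. They were taken by symbol from all 4 deposited expression tables, each of which holds 43628 genes. The Mir290 cluster is represented by 4 of them (Mir291a, Mir293, Mir294 and Mir295) and the Mir302 cluster by 5 (Mir302b, Mir302c, Mir302a, Mir302d and Mir367). All 9 were present in each table. RNA was measured in 617 single cells, in 13 groups, by SMART-seq2 with Tn5 tagmentation, a method that amplifies polyadenylated RNA of one cell and fragments the product. The study followed male and female cells from embryonic stem (ES) cells and early embryos to differentiated cells.

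Both clusters are transcribed as long primary RNAs, from which the nuclear enzyme Drosha with its partner Dgcr8 cuts hairpins and the cytoplasmic enzyme Dicer1 then cuts mature microRNAs. A mature microRNA guides Argonaute proteins to messenger RNAs that pair with its seed, a short stretch near its 5′ end, and these messages are then repressed. The Mir290 cluster is known as the main microRNA locus of mouse ES cells and the early embryo, and the Mir302 cluster as the one taken up at the epiblast stage. Their shared seed is known to speed the G1 to S passage of ES cells and to help reprogramming. Pou5f1, Sox2, Nanog and Tcf7l1 are known to bind at the start of these genes.

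Cultured cells came from 2 ES cell lines, 1 male and 1 female, of a cross between a C57BL/6J mother and a CAST/EiJ father. Each line was sampled in 4 states. The first was 2i with LIF, the ground state medium (60 female and 51 male cells), and the second was serum with LIF, the conventional medium (68 female and 52 male cells). The third was Epi, the epiblast stem cell state in Activin A and FGF2 (79 female and 63 male cells). The last, labelled motor neuron, was reached through embryoid bodies with retinoic acid and the smoothened agonist SAG, and also gives interneurons by the protocol (39 female and 35 male cells). A further female Epi culture of 7 passages gave 41 cells. Embryos gave 23 inner cell mass (ICM) cells of E3.5 and 23 epiblast cells of E4.5, with no sex labelled, and 20 female and 63 male epiblast cells of E5.5 from C57BL/6J parents. Each sex is 1 line, so sex and line cannot be told apart, and the labels tie no embryo cell to an embryo.

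Values are FPKM, expression scaled to gene length and sequenced fragments, as the authors computed them. Depth per cell is unknown, because no counts were used. The hairpin genes are 66 to 84 bases long, short beside usual library fragments, and a mature microRNA carries no polyadenylated tail. Their FPKM is therefore read here as signal of the unprocessed host transcript, and no value below is a level of mature microRNA. The lowest value above 0 was 62.8 FPKM for Mir294 and at most 477 FPKM for any member (Mir302d), and no value lay between 0 and 5 FPKM. A cell therefore either had signal or was listed at 0, and the share of cells with signal was identical at thresholds of 0.1, 1 and 5 FPKM. A cell listed at 0 may hold host transcript that was not captured.

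The mature 3p arms show how the members are related, and RefSeq (GRCm38.p6) held this arm for 8 of the 9, all but Mir302a. They are given 5′ to 3′ with the seed, bases 2 to 8, in capitals.
miR-291a-3p: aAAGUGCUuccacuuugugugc
miR-294-3p: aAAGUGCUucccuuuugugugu
miR-295-3p: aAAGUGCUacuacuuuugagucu
miR-302b-3p: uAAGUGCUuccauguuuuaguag
miR-302d-3p: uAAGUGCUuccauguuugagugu
miR-302c-3p: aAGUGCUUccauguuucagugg
miR-293-3p: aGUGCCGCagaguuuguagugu
miR-367-3p: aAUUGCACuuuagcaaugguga
The seed AAGUGCU was shared by 5 of these arms, 3 of the Mir290 cluster and 2 of the Mir302 cluster. miR-302c-3p as annotated starts later in the same stretch and has the seed AGUGCUU. The arms of Mir293 and Mir367 carry other seeds of their own, as printed, and that of Mir293 shares the letters GUGC with AAGUGCU. The 3p arm lies near the end of its hairpin, shown for Mir302d (chr3:127545624-127545689, plus strand) with the arm in capitals.
Mir302d hairpin: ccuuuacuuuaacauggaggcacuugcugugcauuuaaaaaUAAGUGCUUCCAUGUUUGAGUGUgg

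The Mir290 members lie on the plus strand within 1.92 kb of chromosome 7 (GRCm38), as Mir291a (chr7:3218919-3219000), Mir293 (chr7:3220343-3220422), Mir294 (chr7:3220641-3220724) and Mir295 (chr7:3220773-3220841). RefSeq places them in the non-coding host D7Ertd143e (chr7:3218784-3221015), whose level is not analysed here. On the other strand all 4 fall in the exon that holds the 3′ UTR of Nlrp12, a gene of the NLR family. The Mir302 members lie on the plus strand within 0.58 kb of chromosome 3, in the order Mir302b (chr3:127545228-127545301), Mir302c (chr3:127545363-127545430), Mir302a (chr3:127545496-127545564), Mir302d and Mir367 (chr3:127545733-127545807). Their RefSeq host is the long non-coding RNA Gm51018 (chr3:127545089-127546903), and they sit in an intron of Larp7, which runs on the other strand and encodes a 7SK RNA-binding protein. The use of strand in counting is not given in the sources used here, so reads of the opposite genes cannot be told apart from host reads. Nlrp12 averaged at most 1.51 FPKM in any group (E3.5 ICM), and at most 0.455 FPKM in any culture. Larp7 was at 1 FPKM or more in every cell of 12 groups and in 92.3% of female motor neuron cells, at group means of 21.9 to 73.3 FPKM, while the Mir302 members were listed at 0 in every cell of 6 of those 13 groups.

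The start of the Mir302 host is shown because its 5 members are transcribed together from it. The RefSeq window runs from 250 bases before to 50 bases after the start of Gm51018 (chr3:127544839-127545138, plus strand, GRCm38.p6), with 2 motif matches in capitals.
Gm51018 window: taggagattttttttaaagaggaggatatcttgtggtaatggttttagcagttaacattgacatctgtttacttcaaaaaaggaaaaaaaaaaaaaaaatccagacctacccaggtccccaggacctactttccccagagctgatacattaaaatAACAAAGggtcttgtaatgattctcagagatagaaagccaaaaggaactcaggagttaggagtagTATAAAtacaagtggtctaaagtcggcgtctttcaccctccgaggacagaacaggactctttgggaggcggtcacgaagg
One match, TATAAA, is a form of the core element bound by TBP. It began 30 bases before the start, and 13.6% of 32851 promoter windows of this length hold it on either strand. AACAAAG, letters read by HMG-box factors such as Sox2 and Tcf7l1, began 95 bases before the start and occurs in 5.85% of windows. The octamer ATGCAAAT, read by Pou5f1, was in neither host window (1.74% of all windows). The E-box CACGTG was in the D7Ertd143e window, 39 bases before its start, and not in that of Gm51018 (7.15% of all windows). Mir290a, a hairpin of the same cluster (chr7:3218626-3218708, plus strand), lies inside the D7Ertd143e window, before the annotated start. That window therefore does not show the start of the whole Mir290 cluster, and the letters found or missing in it say nothing about that start. The 2 matches shown do not overlap.

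The labelled states were compared with their markers before the members were read. The naive pluripotency genes Zfp42, Klf4, Esrrb and Tfcp2l1 all averaged at least 1 FPKM in the female Epi culture, against 0 of 4 in the male Epi culture and 0 of 4 in the 7-passage culture. Zfp42 averaged 72.5 FPKM in female Epi, 0.0687 FPKM in male Epi and 0.117 FPKM in the 7-passage culture. Fgf5, a growth factor of the primed epiblast, averaged 14.1, 144.9 and 120 FPKM in the same order. The female Epi culture therefore went against its label in its naive markers, and Epi results are given with and without it. The male Epi culture kept less of the pluripotency genes. Its Sox2 mean was 0.962 FPKM, where male serum had 29.7 and female Epi 28.5. Its Pou5f1 mean was 317 FPKM, where the same cultures had 645 and 1116. Sox17, an endoderm gene, reached a mean of 63.5 FPKM in the male culture, against 0.443 for the female one. Neither culture is therefore taken as a clean example of its label. In the motor neuron cultures the neuronal tubulin Tubb3 reached 1 FPKM in 94.9% of female and 100% of male cells, and the motor neuron factor Isl1 in 43.6% and 62.9%. The endoderm genes Gata4, Gata6 and Sox17 were also present there, at summed medians of 11.4 FPKM in female and 174 FPKM in male cells. Median genes per cell at 1 FPKM or more ran from 8122 (E3.5) to 10839.5 (female E5.5).

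The share of cells with Mir290 signal was lower with each state from 2i to motor neuron, and Mir302 signal appeared mainly in Epi and E5.5 cells. At least 1 of the 4 members of the Mir290 cluster was detected in 51 of 60 female 2i cells (85%, exact Clopper-Pearson 95% interval 73.4 to 92.9) and in 46 of 51 male ones (90.2%, 78.6 to 96.7). In serum the shares were 53 of 68 cells for the female line (77.9%, 66.2 to 87.1) and 32 of 52 for the male one (61.5%, 47 to 74.7). In Epi they were 40 of 79 cells for the female line (50.6%, 39.1 to 62.1) and 12 of 63 for the male one (19%, 10.2 to 30.9). Both values of a state lay above both of the next, in the order 2i, serum, Epi, motor neuron, and the intervals of neighbouring states overlapped in part. In the motor neuron cultures 1 of 39 female cells had signal (2.56%, 0.0649 to 13.5) and 0 of 35 male cells, which allows a share of up to 8.57%. With 2 cultures a state, an exact two-sided permutation test of a share cannot go below p = 0.333, so no p is given for these shares. Intervals cover counting error only.

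**Figure D1:**
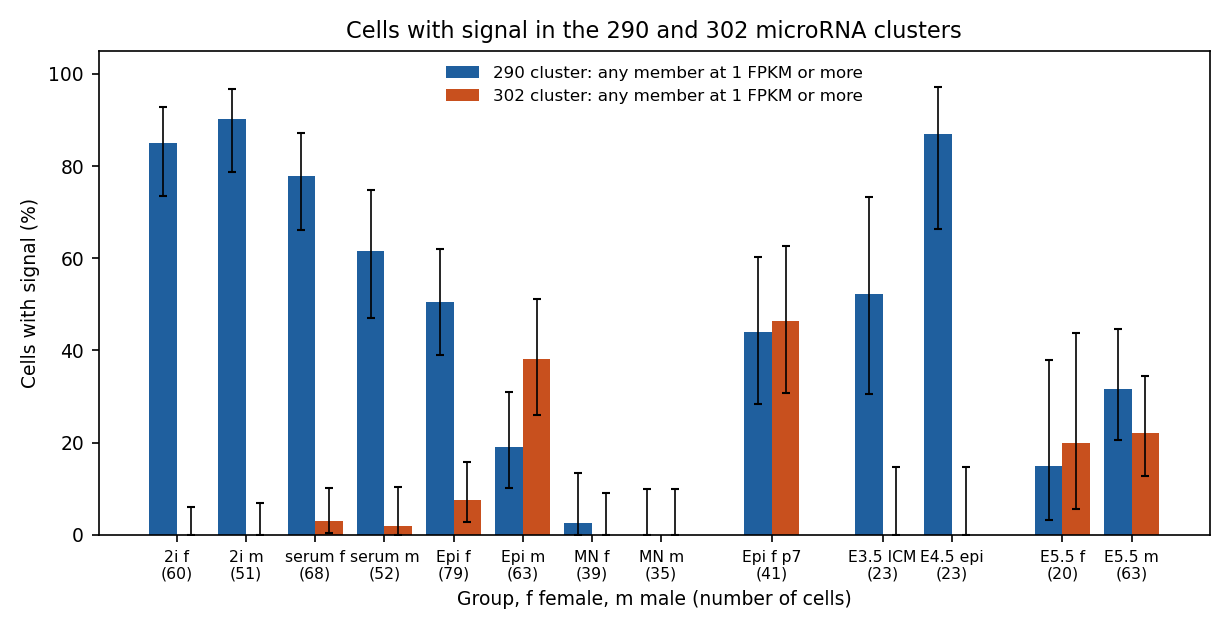
Share of cells, in percent, in which any member of the Mir290 cluster (blue) or of the Mir302 cluster (orange) reached 1 FPKM, for the 13 groups with the number of cells in parentheses and exact 95% binomial intervals as bars; p7 marks the culture of 7 passages. The Mir290 share runs from 90.2% in male 2i cells to 0 of 35 male motor neuron cells, and the Mir302 share is highest in the 7-passage Epi culture (46.3%) and in male Epi (38.1%).

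The Mir302 cluster ran differently along the same states. It was listed at 0 in every 2i cell, which allows up to 5.00% of cells in the female culture and 5.88% in the male one. In serum 2 of 68 female cells (2.94%, 0.358 to 10.2) and 1 of 52 male cells (1.92%, 0.0487 to 10.3) had signal. In Epi it was 6 of 79 female cells (7.59%, 2.84 to 15.8) and 24 of 63 male cells (38.1%, 26.1 to 51.2), and in the 7-passage culture 19 of 41 (46.3%, 30.7 to 62.6). The intervals of the male and the 7-passage Epi cultures do not reach that of the female Epi culture. No motor neuron cell had Mir302 signal, with limits of 7.69% in the female and 8.57% in the male culture.

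Cell titles within most cultures carry numbers in 2 separate runs, which are not labelled as a batch. The order of the Mir290 shares held within each run. In the lower run the share was 80% and 86.4% (female and male 2i), 69.2% (male serum), 58.8% and 22.6% (female and male Epi) and 0 in both motor neuron cultures. In the higher run it was 90% and 93.1%, 59%, 44.4% and 15.6%, and 5.88% and 0. The female serum cells had a single run. The Mir302 share of male Epi cells was 35.5% in the lower and 40.6% in the higher run, against 8.82% and 6.67% in female Epi. Cells with Mir290 signal had a median of 10483 genes at 1 FPKM in female 2i and 10461.5 in male 2i, and those without it 9796 and 9336. In male Epi the order was the other way (9083.5 with and 9435 without signal). The part of genes per cell in the shares was not tested.

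Mir295, the last hairpin of its host, had the highest mean of the Mir290 members in each of the 12 groups with any Mir290 signal. It averaged 2366 ± 2483 FPKM in female 2i (SD over 60 cells) and 2168 ± 1664 in male 2i (51 cells). In serum it averaged 3691 ± 6704 (68 female cells) and 1977 ± 3119 (52 male cells), and in Epi 1102 ± 2245 (79 female cells) and 139.4 ± 416.8 (63 male cells). The spread among cells exceeded the mean in each of these cultures except male 2i. It averaged 58.7 FPKM in female motor neuron cells, all of it from 1 cell, and was listed at 0 in male ones. The female serum culture was the highest, and 1 of its cells reached 48450 FPKM. That cell held 14.8% of the summed Mir290 signal of the culture.

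The lowest cell of Mir295 was at 0 in every group. Over all cells the median of Mir295 in 2i was 1652 FPKM for the female and 1999 FPKM for the male culture, with highest cells of 11270 and 8047 FPKM. In serum the medians were 2172 and 774.6 FPKM, and in both Epi cultures the median was 0, with highest cells of 14310 FPKM (female) and 2015 FPKM (male). Over only the cells with Mir295 signal, the medians lay closer together, at 2282 FPKM (49 female 2i cells), 2058 (43 male 2i cells), 2998 (49 female serum cells), 2311 (28 male serum cells), 1861 (30 female Epi cells) and 1162 (8 male Epi cells). Between these cultures the number of cells with signal thus moved more than the level in such a cell, as a description of cells above a detection limit.

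In the cultures of the first table most cells with signal showed more than 1 hairpin of the Mir290 cluster. At least 2 members were detected in 34 of 51 such female 2i cells, 29 of 46 male 2i cells, 42 of 53 female and 22 of 32 male serum cells. In Epi it was 24 of 40 female and 10 of 12 male cells. All 4 members were seen together in 0 to 7 cells of a culture, most often in male 2i. At E5.5 most cells with signal showed 1 hairpin, with at least 2 members in 1 of 3 female and 5 of 20 male ones.

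Mir294, whose mature arm carries the shared seed, followed at a lower level. Female and male means were 432 and 381 FPKM in 2i, 629 and 380 in serum, 274.5 and 88.9 in Epi, and 30.2 and 0 in motor neuron cultures. Mir293, with its own seed, averaged 242.6 and 339 FPKM in 2i, 474 and 390 in serum, 286.02 and 79.01 in Epi, and 8.02 and 0 in motor neuron cultures. The 2i and serum means overlapped for Mir294, while for Mir293 both serum means lay above both 2i means. For both genes the male Epi culture was lower than all 4 ES cultures, and the motor neuron cultures were the lowest. Mir291a, the first of the 4 on the host, had the lowest mean in all 12 groups. It averaged 19.97 and 70.2 FPKM in 2i, 33.4 and 31.8 in serum and 52.8 and 19.2 in Epi, with signal in 3 to 8 cells of a culture, and was listed at 0 in both motor neuron cultures. Neighbouring states do not separate in the level of Mir291a except for motor neuron.

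**Figure D2:**
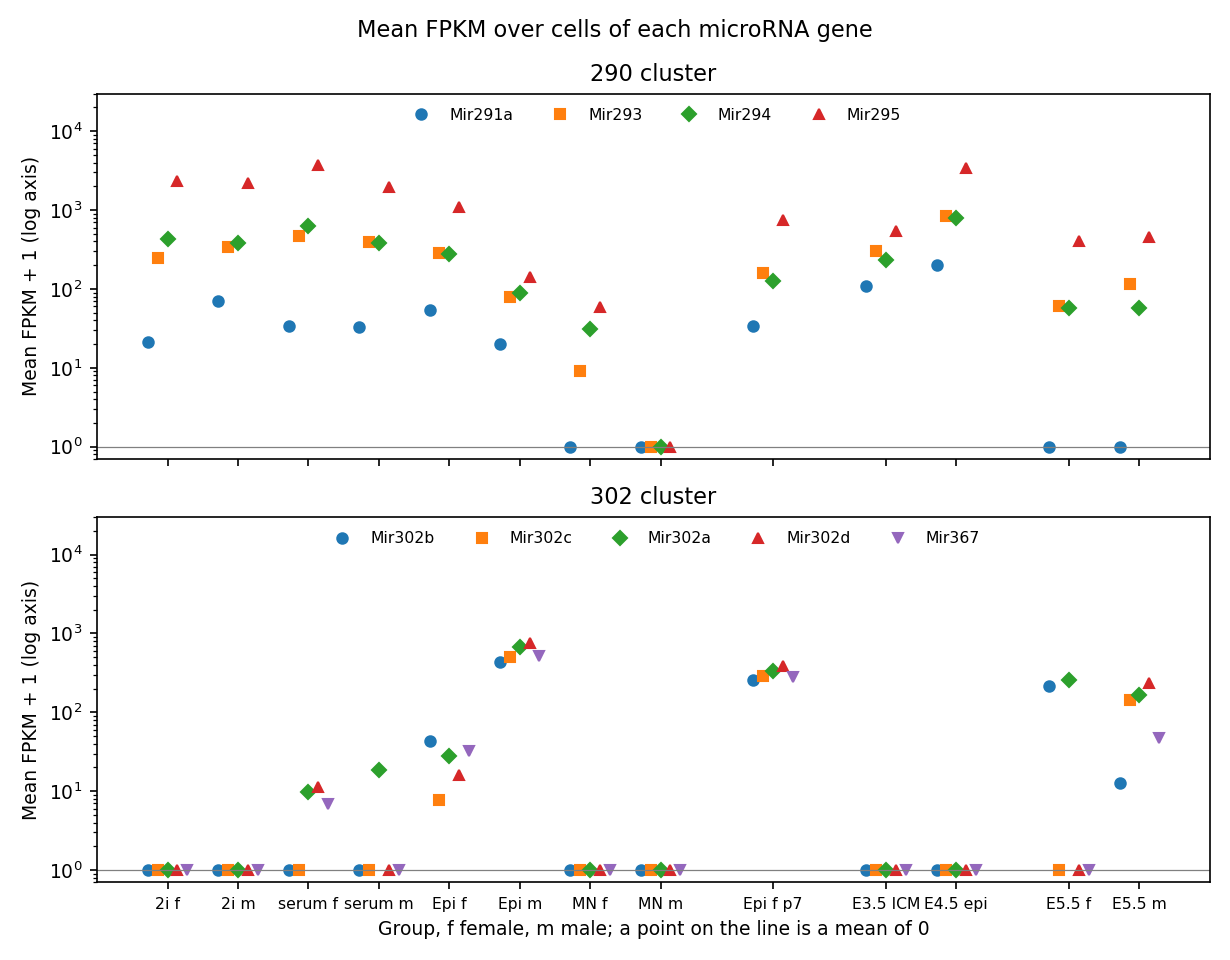
Mean FPKM plus 1 over the cells of each group (log axis) for the 4 members of the Mir290 cluster (upper panel) and the 5 of the Mir302 cluster (lower panel), with 1 symbol per gene; points on the grey line are means of 0. Mir295 is the top symbol of the upper panel wherever there is signal, and the Mir302 genes leave the line in serum, Epi and E5.5 groups only.

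Detection along the Mir290 host differed between hairpins. Mir291a lies next to the annotated start of the host D7Ertd143e. The other members start 1559 (Mir293), 1857 (Mir294) and 1989 bases (Mir295) after that start. In female 2i cells the detected shares in that order were 6.67%, 33.3%, 53.3% and 81.7%, and in male 2i cells 15.7%, 43.1%, 43.1% and 84.3%. The share did not fall from one member to the next in 7 of the 12 groups, and Mir295 alone had the highest share in 9. Mir292 and Mir291b, which start 405 and 698 bases along the host, were detected in 5.00% and 28.3% of female 2i cells. Mir295 made up 42.7% (male Epi) to 77.3% (female 2i and female E5.5) of the summed mean of the 4 members. The hairpins have similar lengths (82, 80, 84 and 69 bases), and Mir295 is the shortest. The part of length and of place on the host in this order was not tested.

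**Figure D3:**
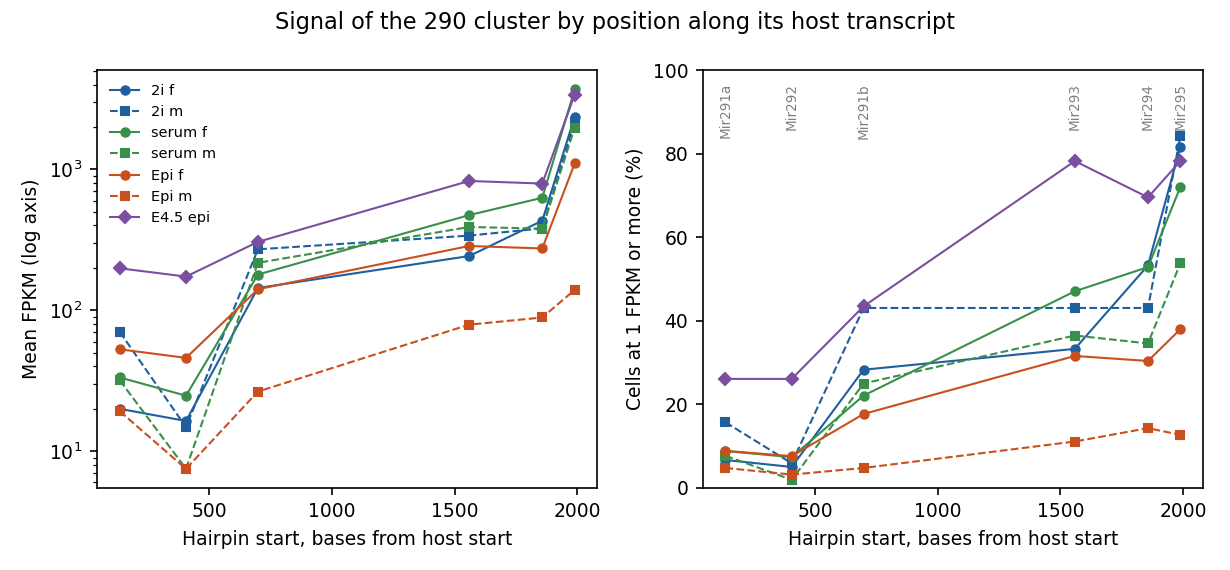
Mean FPKM (left, log axis) and share of cells at 1 FPKM or more (right) of 6 hairpin genes of the Mir290 cluster against the distance in bases of the hairpin from the annotated start of the host, for 6 cultures and E4.5 epiblast. The mean is lowest at Mir292 and highest at Mir295 in each group drawn.

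Serum was compared with 2i to ask whether the medium changed the host signal. No member was called. A call needed a Benjamini-Hochberg adjusted p below 0.05 in limma and at least a doubling or halving of the level. limma called 0 of 9, beside 0.0193% of the 15504 genes tested. Mir302b and Mir302c were listed at 0 in all 2i and serum cultures, so they could not be called. The Mir290 members changed by -0.20 (Mir291a, SE 0.67) to 0.58 (Mir293, SE 1.05) on the log2(mean FPKM + 1) scale, less than their standard errors. The test measures spread between the 2 lines, with 1 culture of each line in a state, pooled over all 4 states. The standard error is therefore not that of the 2i and serum cultures alone. For Mir293 the male minus female log2 difference was 0.48 in 2i and -0.28 in serum, but -1.84 in Epi and -3.17 in motor neuron cultures. With only the 4 cultures compared, Mir293 had a limma adjusted p of 0.276 and was not called. Mir302a, listed at 0 in 2i, averaged 8.64 FPKM in serum for the female line and 17.6 FPKM for the male one, with 1 cell in each culture carrying it. It was the only member at an unadjusted p under 0.05 (log2 change 3.74, SE 1.33, limma adjusted p = 0.399). Of all genes 1549 passed at that unadjusted level. With the 7-passage culture as the female Epi sample, Mir302a was called (limma adjusted p = 0.0347, with 0.214% of genes called higher in that fit), within a range of 0.0347 to 1.0 over the 20 alternatives. In Mir302 members the log2 changes rest on the pseudocount, since 2i is listed at 0.

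Epi cultures were compared with serum to ask what happens on the way to the primed state. The Mir302 members were higher in Epi than in serum in each line, by amounts that differed between the lines, and the Mir290 members other than Mir291a were lower in each line. limma called 0 of the 9, beside 0.0387% of all genes tested. At an unadjusted limma p under 0.05 there were 5 members, all of the Mir302 cluster, beside 1000 of the 15504 genes tested. Mir302b, Mir302c and Mir367 passed the filter on low values only because of the Epi cultures, where they are higher. Their part of this count is therefore no support for a difference.

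Mir302b, the first hairpin of its host, averaged 41.9 FPKM in the female Epi culture and 429 FPKM in the male one and was listed at 0 in every cell of the other 6 cultures of that table. Its fitted log2 change was 7.09 (SE 0.97, limma adjusted p = 0.236). Mir302c averaged 6.78 and 498 FPKM in the same cultures, again with 0 in the other 6 cultures. The female value came from 1 cell, and 17 of 63 male cells had signal. Mir302a averaged 26.9 and 677 FPKM, Mir302d 14.9 and 746 FPKM, and Mir367, whose mature arm has a seed of its own, 31.6 and 511 FPKM. The male culture was above the female one for all 5, and Mir302d had the highest male mean (745.8 ± 1722, SD over 63 cells). The members of the Mir302 cluster were mostly seen together: of the 24 male Epi cells with any, 23 had at least 2 and 8 had all 5, and in female Epi 5 of 6 had at least 2. In the 7-passage culture 12 of 19 had at least 2 and 3 had all 5. The median of the summed signal was 0 in each Epi culture, and the highest cells were at 25760 FPKM (male), 11990 FPKM (7-passage) and 3203 FPKM (female). The highest female cell held 33.2% of its culture's sum and the highest male cell 14.3%. Fitted log2 changes of Mir302c, Mir302a, Mir302d and Mir367 were 3.36 (Mir302a) to 5.96 (Mir302c), with limma adjusted p of 0.712 to 0.727.

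These calls depended on which culture stood for female Epi. With the 7-passage culture in its place, which comes from a separately normalised table, all 5 members of the Mir302 cluster were called higher, beside 2.94% of genes called higher in that fit, with limma adjusted p from 0.000195 (Mir302b and Mir302c) to 0.017 (Mir302d). Mir302b, Mir302c and Mir367 passed the filter on low values only because of the Epi cultures, the group in which they are higher. Outside Epi, Mir367 averaged 5.79 FPKM in female serum and was listed at 0 in the other cultures of the fit. The calls of Mir302b, Mir302c and Mir367 are therefore no support for a difference. Without the female Epi culture 3 were past the call rule (Mir302a, Mir302b and Mir302c, beside 1.34% of genes), and without the male one 2 (Mir302b and Mir302c, beside 0.484%). With 1 Epi culture left, Mir302b and Mir302c have no spread in any state, their standard error comes from the trend across genes alone, and those values are not a test of these genes. Over 20 alternatives the adjusted p of Mir302b ran from 0.000195 to 0.886 and that of Mir302c from 0.000195 to 1.0. With both Epi cultures in the fit, the spread of these 2 genes comes from the Epi pair and from the trend across genes.

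**Figure D4:**
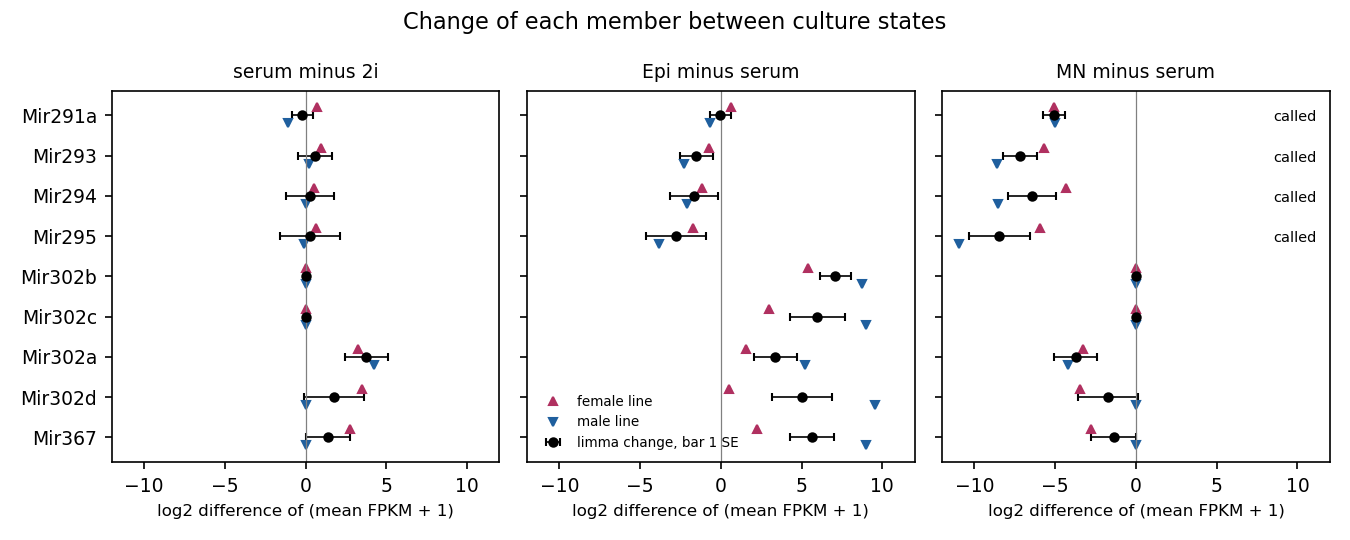
Difference of log2(mean FPKM + 1) for each member in the 3 comparisons of culture states; black points and bars are the limma change with 1 standard error, and triangles are the female and male lines alone. In Epi against serum the male triangle of each Mir302 member is further to the right than the female one, and the 4 members of the Mir290 cluster are the ones called in motor neuron (MN) against serum.

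The female and the male Epi cultures differed in every member. With 1 culture on each side this is a description without a test. All 9 were past 2-fold, beside 23.1% of genes: the 4 members of the Mir290 cluster were lower in the male culture, by -1.41 (Mir291a) to -2.97 (Mir295) on the log2 scale, and the 5 of the Mir302 cluster higher, by 3.33 (Mir302b) to 6.00 (Mir302c). The same directions held within each run of title numbers, with 9 past 2-fold in each. Naive and primed markers moved with it: the summed median of the 4 naive markers was 55.3 FPKM for cells of the female and 0.104 FPKM for those of the male Epi culture, and that of the 4 primed markers 129 and 548 FPKM. The endoderm markers moved too: their summed FPKM per cell had a median of 0 in female and of 29.7 (0 to 748) in male Epi, the highest female cell being lower than the highest male one, with none of the 3 at 0 in every cell. The summed FPKM of the 5 trophoblast markers averaged 37.3 (0 to 683) over female and 145.7 (20.2 to 721) over male Epi cells. It averaged 664.6 (0.188 to 4189) in the 7-passage culture, with none of the 5 at 0 in every cell. In female and male Epi, Krt8 averaged 14.1 and 79.2 FPKM and Eomes 3.898 and 45.2 FPKM. Cdx2 was lower in male Epi (0.371 and 0.0539 FPKM), and Tfap2c was close (18.9 and 21.2 FPKM). The part of these markers in the difference was not tested, and sex, line and culture cannot be told apart. In the 7-passage female culture, whose table was normalised separately, the deposited means of all 9 members lay between those of the 2 cultures, among them Mir295 (736 FPKM), Mir293 (159 FPKM), Mir302b (257.7 FPKM), Mir302c (290 FPKM) and Mir302d (389 FPKM). Its naive markers had a summed median of 0.

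In single cells the clusters were seen apart and together. Of 63 male Epi cells 5 had signal of both, 7 of the Mir290 cluster alone, 19 of the Mir302 cluster alone and 32 of neither. In the 7-passage culture 11 of 41 cells had both, 7 only Mir290, 8 only Mir302 and 15 neither. Of 79 female Epi cells 4 had both, 36 only Mir290, 2 only Mir302 and 37 neither. Among male E5.5 cells 5 of 63 had both, 15 only Mir290 and 9 only Mir302. Detection misses many transcripts, so a cell listed with 1 cluster alone is not shown to lack the other.

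**Figure D5:**
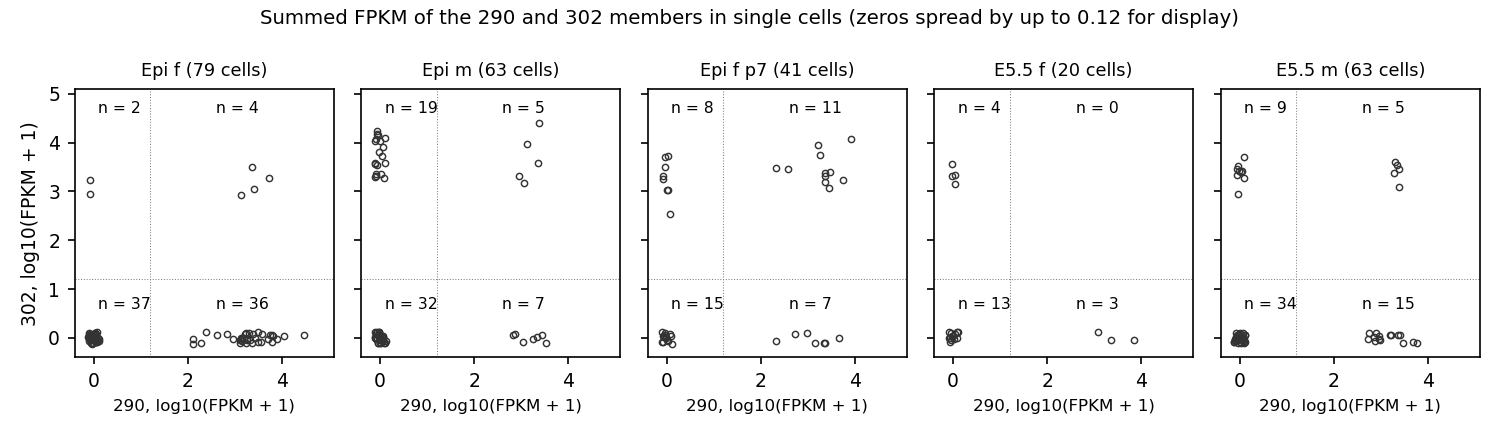
Summed FPKM of the Mir290 members (x axis) and the Mir302 members (y axis) in each cell of the 3 Epi cultures and the 2 groups of E5.5 epiblast, as log10(FPKM + 1), with the number of cells in each quadrant. Male Epi has 19 cells with Mir302 signal alone, while female Epi has 36 with Mir290 signal alone.

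Within the female Epi culture the 6 cells with Mir302 signal had a median Zfp42 of 7.00 FPKM (2.78 to 17.9) and a median Fgf5 of 32.4 FPKM (9.81 to 70.96). The other 73 cells had 35.3 FPKM (0 to 360) and 0.573 FPKM (0 to 148.9), so the ranges overlapped, and Pou5f1 was similar (1062 and 1094 FPKM). The 40 cells with Mir290 signal had a median Zfp42 of 45.1 FPKM and the 39 without it 23.3 FPKM. In male Epi, Fgf5 had a median of 182 FPKM in the 24 cells with Mir302 signal and 111.2 FPKM in the 39 without, and T, a gene of the primitive streak, 57.5 and 137.3 FPKM. In the 7-passage culture the 19 cells with Mir302 signal had a median Pou5f1 of 674 FPKM and the 22 without it 86.5 FPKM. Cells of 1 culture are not replicates, so these medians carry no test.

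Motor neuron cultures were set against serum to ask what is left of the host signal after differentiation. All 4 members of the Mir290 cluster were lower in both lines, and limma called 4 of 4 lower, beside 2.7% of genes called lower and 30.1% called higher. The summed FPKM of a cell also moved, with medians of 862527 and 922930 in serum and 1332430 and 1478620 in the motor neuron cultures. With upper-quartile scaling 10.4% of genes were called lower and 13.3% higher, and with cells rescaled to the same sum 6.36% and 14.2%, and 4 of 4 members of the Mir290 cluster were lower under both. Mir295 fell from 3691 and 1977 FPKM to 58.7 and 0 FPKM in the female and male line, with a log2 change of -8.45 (SE 1.87, limma adjusted p = 0.0167). Mir293 changed by -7.16 (SE 1.05, limma adjusted p = 0.0051), Mir294 by -6.45 (SE 1.48, 0.0188) and Mir291a by -5.07 (SE 0.67, 0.00406). Where a group is listed at 0 the size of these changes rests on the pseudocount. The Mir302 members were at 0 in both motor neuron cultures and at 0 to 17.6 FPKM in serum, and 0 of 5 were called. Mir302b and Mir302c were at 0 in the serum cultures too, so they could not be called. Mir302a (log2 change -3.74, limma adjusted p = 0.0702) was called lower in 6 of 20 alternatives, over which its adjusted p ran from 0.00224 to 0.897.

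The 4 members share 1 host and are not independent. Over 20 alternatives the limma adjusted p ran from 0.00203 to 0.106 (Mir291a), 0.0017 to 0.0445 (Mir293), 0.00125 to 0.106 (Mir294) and 0.00174 to 0.0976 (Mir295), with each change negative. The log2 change of Mir291a ran from -8.35 with a pseudocount of 0.1 to -0.70 with log2 values averaged over cells, where it was below the 2-fold rule (limma adjusted p = 0.106). Without the female or the male serum culture 2 members remained called, Mir291a and Mir293, since Mir294 and Mir295 then had adjusted p of 0.0762 to 0.106. Endoderm markers moved with this comparison: 3 of 3 were called higher, and their summed FPKM per cell ran from 0 to 14.6 in female serum, 0 to 4.61 in male serum, 0 to 720 (median 11.4) in female and 0.566 to 2520 (median 174) in male motor neuron cells, with none of the 3 at 0 in every cell. All 5 neuron markers were called higher, among them Tubb3 by 5.17 and Isl1 by 7.22. Of 4 trophoblast markers tested, 1 was called higher (Krt8, a keratin) and 1 lower (Tfap2c). The summed median of the 5 listed was 9.73 and 21.4 FPKM in serum and 89.6 and 161 FPKM in the motor neuron cultures, where Eomes and Tfap2c were at 0 in every male cell. The part of these cell types in the fall was not tested.

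Of the other genes of both loci, 5 of 10 listed were in the tables. In motor neuron against serum, where 2.7% of all genes were called lower, 2 of the 5 were called lower. These were the Mir290 hairpins Mir291b (-5.67, SE 1.32, limma adjusted p = 0.0195) and Mir292 (-3.89, SE 0.85, 0.0164). AU018091, a gene 49.4 kb from the cluster, changed by -3.75 (SE 1.54, limma adjusted p = 0.102). It averaged 42.8 and 34.3 FPKM in female and male serum and 5.63 and 0.287 FPKM in the motor neuron cultures. In Epi it was at 29.4 FPKM in the female, 0.0118 FPKM in the male and 0.232 FPKM in the 7-passage culture. Larp7 changed by -0.13 (SE 0.31) in motor neuron and by 0.29 (SE 0.31) in Epi against serum.

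The 4 factors named above as known to bind at both loci were all tested. In motor neuron against serum 2 were called lower, beside 2.7% of all genes, and 0 in the other contrasts. Pou5f1, the octamer-binding factor of pluripotent cells, changed by -6.01 (SE 1.55, limma adjusted p = 0.0271), from 494 and 645 FPKM to 52.5 and 0.447 FPKM. Nanog, a homeobox factor of naive cells, changed by -5.04 (SE 1.05, limma adjusted p = 0.0139). Sox2 changed by -2.78 (SE 1.28, limma adjusted p = 0.134) and Tcf7l1, which represses targets of Wnt signalling, by -0.02 (SE 0.28).

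Of 19 genes of microRNA maturation and silencing 17 were tested. In motor neuron against serum 2 were called higher, 1 lower, and 0 in the other contrasts, with a median change of 0.61 beside 0.71 over all genes. These are 11.8% and 5.88% of the list, beside 30.1% of all genes called higher and 2.7% called lower. Trim71, an RNA-binding protein and known let-7 target, fell by 1.52 (SE 0.30, limma adjusted p = 0.0113), from 18.4 and 16.1 FPKM to 6.76 and 4.198 FPKM. The Dicer partner Prkra rose by 2.34 (SE 0.62, limma adjusted p = 0.0289) and the silencing factor Tnrc6a by 1.11 (SE 0.27, limma adjusted p = 0.022). With cells rescaled to the same sum or scaled to the upper quartile, which put the median of all genes at 0.14 and -0.01, these 2 were no longer called, and Trim71 and the export receptor Xpo5 were called lower. Drosha (28.5 and 29.2 FPKM in serum, 38.6 and 30.8 FPKM in motor neuron cultures) and Dicer1 (2.94 and 2.46, then 5.93 and 4.05 FPKM) were not called.

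Of 15 reported targets of the shared seed, all tested, 11 were called higher and 1 lower in motor neuron against serum, with a median change of 2.15 beside 0.71 over all genes. These are 73.3% and 6.67% of the list, beside 30.1% and 2.7% of all genes. The count was 5 higher, 1 lower under either rescaling (33.3% of the list higher, beside 13.3% of genes with upper-quartile scaling and 14.2% with cells rescaled), where the Mir290 members stayed 4 of 4 lower. The 5 were Akt1, Lats2, Nr2f2, Rhoc and Tgfbr2, and the lower one was Lefty2. Lats2, a kinase of the Hippo pathway, averaged 1.798 and 0.593 FPKM in female and male serum and 15.8 and 7.74 FPKM in the motor neuron cultures, a change of 2.52 (SE 0.46, limma adjusted p = 0.00903). Tgfbr2, a TGF-beta receptor, rose by 3.39 (SE 0.33, limma adjusted p = 0.00243), from 0.121 and 0.0792 FPKM to 10.4 and 10.7 FPKM. Cdkn1a, an inhibitor of the G1 to S passage, was abundant in every culture state that was compared, at 196.6 and 144.3 FPKM in serum and 880 and 639 FPKM in motor neuron cultures. Its change of 2.15 (SE 0.47, limma adjusted p = 0.0161) was not called under either rescaling. The kinase Akt1 rose by 3.09 (SE 0.24, limma adjusted p = 0.00211) and the nuclear receptor Nr2f2 by 3.27 (SE 0.39, 0.00348). Dkk1, a Wnt inhibitor listed at 0 in serum, averaged 17.3 and 55.6 FPKM in motor neuron cultures (limma adjusted p = 0.0432). Lefty2, an inhibitor of Nodal signalling, fell by 3.79 (SE 0.91, limma adjusted p = 0.022). None of the 15 was called in serum against 2i or Epi against serum. The list was chosen with earlier results of these data known, so its excess over all genes is no independent support. The part of the Mir290 members and of the cell types in these changes was not tested.

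The letters AGCACTT, which pair with the seed AAGUGCU, were searched on the transcript's strand in the longest annotated 3′ UTR of each gene. They were found for 13 of the 15 reported targets, not for Dkk1 and Nr2f2. Among the tested genes, 2189 held them and 10127 did not. The median log2 change was 0.97 with and 0.81 without the letters in motor neuron against serum, 0.16 and 0.13 in Epi against serum, and -0.03 and 0.01 in serum against 2i. The median 3′ UTR was 2622 bases with and 1086 bases without them, and its part in the small difference was not tested. For the letters GTGCAAT, which pair with the seed of miR-367-3p, the medians were 1.15 with them (966 genes) and 0.82 without them in motor neuron against serum, with median 3′ UTRs of 2704 and 1214 bases. For AAGCACT, which pairs with the seed of miR-302c-3p, they were 0.97 with and 0.82 without the letters (2693 and 1114 bases). For GCGGCAC, which pairs with the seed of miR-293-3p, they were 0.94 and 0.84 (2494 and 1282 bases). For each of these sites the genes with it had the longer 3′ UTRs.

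In the embryo the Mir290 signal was higher at E4.5 than at E3.5, and the Mir302 signal was seen first at E5.5. These tables were normalised separately from the cultures, so levels are compared only within them. At E3.5, 12 of 23 ICM cells had Mir290 signal (52.2%, 30.6 to 73.2), and at E4.5, 20 of 23 epiblast cells (87.0%, 66.4 to 97.2), so the intervals overlap. Mir295 averaged 543 FPKM at E3.5 and 3394 FPKM at E4.5, Mir293 299 and 827.5 FPKM, and Mir294 229.5 and 793 FPKM. These 3 of the 9 were past 2-fold higher at E4.5, beside 11.6% of genes, with log2 differences of 1.46 (Mir293) to 2.64 (Mir295), and Mir291a (107.8 and 198.6 FPKM) was not. Each stage is taken as 1 sample, without a test. In the E3.5 ICM 1 cell held 37.7% of the summed Mir290 signal, and at E4.5 1 cell held 27.4%.

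The Mir302 members were listed at 0 in all 46 blastocyst cells, which allows up to 13.0% of cells at each stage. Markers of other lineages were present at both stages. The summed median of 5 trophoblast markers was 66.1 FPKM (11.8 to 578) at E3.5 and 256.2 FPKM (2.21 to 571) at E4.5, with Cdx2, a trophectoderm factor, at means of 13.7 and 48.6 FPKM. Endoderm markers were present, with summed medians of 27.2 FPKM (0 to 140.5) at E3.5 and 24.7 FPKM (0 to 374) at E4.5. None of these 8 markers was at 0 in every cell, and the part of these cell types was not tested.

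At E5.5, 3 of 20 female cells (15.0%, 3.21 to 37.9) and 20 of 63 male cells (31.7%, 20.6 to 44.7) had Mir290 signal. For the Mir302 cluster it was 4 of 20 female cells (20%, 5.73 to 43.7) and 14 of 63 male ones (22.2%, 12.7 to 34.5). These intervals cover counting error over cells that are not tied to embryos, so they cannot compare the sexes. Mir295 averaged 400 FPKM in female and 448 FPKM in male cells, and Mir302a 256.96 and 165.5 FPKM. Mir302d averaged 237.4 FPKM in male cells and was listed at 0 in female ones, as were Mir302c and Mir367. Mir302b went the other way, with a mean of 212 FPKM over the 20 female cells, 2 of them with signal, and of 11.6 FPKM over the 63 male cells, 1 of them with signal. Mir291a was listed at 0 in all E5.5 cells. At least 2 members of the Mir302 cluster were detected in 0 of the 4 female and 6 of the 14 male cells with any. Pou5f1 was detected in every E5.5 cell, and its median was 799 FPKM in male cells with Mir290 signal and 776 FPKM in those without it.

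Levels were ordered within each table only, since the tables were normalised separately. In the table of 8 cultures the summed Mir290 members were highest in female serum (4827 ± 7551 FPKM, SD over 68 cells), then in female 2i (3060.2 ± 3016), male 2i (2959 ± 2190), male serum (2778 ± 3991), female Epi (1716 ± 3793), male Epi (326.5 ± 772) and the motor neuron cultures (96.97 and 0). In the blastocyst table E4.5 epiblast (5213 ± 7775) was above E3.5 ICM (1179 ± 2375), and at E5.5 male cells (617 ± 1201) were above female ones (517 ± 1602). For the summed Mir302 members the order in the cultures was male Epi (2861 ± 5280), female Epi (122.02 ± 484), female serum (24.65 ± 144.8) and male serum (17.6 ± 126.8), with 0 in the other 4. At E5.5 they averaged 602 ± 1234 FPKM in male and 469 ± 1036 FPKM in female cells. Each step between neighbours in these orders is smaller than the spread among cells of the higher group. The 7-passage Epi culture, in a table of its own, had 1054 ± 1807 FPKM of the Mir290 and 1549 ± 2588 FPKM of the Mir302 members.

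Across the 8 cultures of the first table, the genes with the pattern most like the summed Mir290 signal, by Pearson r of log2(mean FPKM + 1) over 15490 genes, were Gm8173 (0.993), Rpl13 (0.988), ENSMUSG00000097769 (0.986), Rpl37 (0.982) and Cdh1 (0.982), the last encoding E-cadherin. Pou5f1 had r = 0.971 and AU018091 0.809. The genes most like the summed Mir302 signal were Bcl11a (0.978), Vrtn (0.969), U2af2 (0.968), Otx2 (0.967) and Spata13 (0.966), and Fgf5 had 0.958. Otx2, a homeobox factor of the primed epiblast, averaged at most 30.8 FPKM in 2i, serum and female Epi and 173 FPKM in male Epi. Larp7, on the opposite strand of the Mir302 hairpins, had r = 0.663. The 8 points share lines and states and 15490 genes were searched, so these values describe likeness only.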

How the data were processed

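Single-cell RNA was measured in 617 cells. FPKM values were computed by the authors; the submitters' processing notes name STAR 2.4.1, Cufflinks and Cuffnorm 2.2.1 and the mm10 build. Settings, annotation, use of strand and cell filters are not given in the sources used here. The 4 deposited FPKM tables were normalised separately, so levels were tested only within a table, except where the 7-passage culture replaces the female Epi culture. Exponents written with a low line were read as minus signs (356 values, at most 9.7552e-05 FPKM). Of 43628 genes, 42462 matched a symbol.

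Cells of 1 culture were averaged, since cells are not replicates. Values of log2(mean FPKM + 1) of the 8 cultures were fitted with limma 3.58.1 in R 4.3.3 (trend, 1 coefficient per state, 4 residual degrees of freedom) over the 15504 genes whose average across cultures reached 1 FPKM, and p-values were adjusted over all of them. All 9 members passed that filter. Mir302b and Mir302c did so through the Epi cultures alone, and Mir367 would not have passed without them. The serum values of Mir302a and Mir302d were enough for these genes to pass. Groups of 1 sample were compared by a 2-fold rule without a test. A fold is on the log2(mean FPKM + 1) scale and understates changes of low genes. The 2 lines recur in each state, so the labels pair the cultures; deviations of a line from the state mean correlated at 0.0605 to 0.163 between states. The limma fit was tested on simulated data. Shares have exact 95% intervals, and a share of 0 has a limit of 3 cells of the total.

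All members were described. From each other list, called genes were named, at most 6 by size of change. Larp7, AU018091, Mir290a, Sox2, Tcf7l1, Drosha, Dicer1, Xpo5, Rhoc and Cdkn1a fall outside that rule, and their values were known when they were picked. Members and lists were chosen with earlier results of these data known. The seed site search was added after values were seen. Figures were drawn with matplotlib 3.10.9.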

Additional observations from a re-analysis of the deposited data

How the results depend on the processing

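Counts are of members called by limma. In serum against 2i the count was 0, and 1 with the 7-passage Epi culture; leaving out 1 culture at a time gave 0 each time. In Epi against serum it was 0, and 5 with the 7-passage culture; leaving out 1 culture gave 0 to 3 (3 without female Epi, 2 without male Epi). In motor neuron against serum it was 4, and 2 without the filter on low values (Mir291a and Mir293); leaving out 1 culture gave 2 to 5, with 2 without either serum culture and 5 without either Epi culture. Mir302a gained a call there in 6 alternatives: without either Epi culture, with the 7-passage culture, with a pseudocount of 0.1, in the higher run and with only the 4 cultures compared. Mir291a lost its call with log2 values averaged over cells (-0.70, adjusted p = 0.106) and in the lower run (adjusted p = 0.0586). Mir294 lost it in the higher run (0.0673), and Mir294 and Mir295 with only the 4 cultures compared (0.0921 and 0.0785). With 1 culture left in a state, that culture is assumed to vary like the others. With the line as a replicate block the counts were 0, 0 and 4 in the same order, and no call of a member changed. Directions were reversed only where the change was small. In serum against 2i, Mir291a (-0.20) was 2.49 in the lower run of title numbers and -1.08 to 0.68 with 1 culture left out. Mir294 (0.27) was -0.24 with log2 values averaged over cells, -0.22 in the higher run and -0.10 to 0.63 with 1 culture left out. Mir295 (0.25) was -1.95 with log2 values averaged and -0.20 to 0.70 with 1 culture left out. In Epi against serum, Mir291a (-0.03) was 0.15 with cells rescaled and -0.73 to 0.68 with 1 culture left out. The cause was not tested. No other direction of a member was reversed under the alternatives run, and the shares of cells were equal at each threshold. Depth per cell is unknown, which limits what a value of 0 shows.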

Other observations

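Of 30 other microRNA genes of early cells or neurons 27 were in the tables and 14 were tested. In motor neuron against serum limma called 1 higher and 1 lower, and 0 in the other comparisons. Of all genes, 30.1% were called higher and 2.7% lower in motor neuron against serum. Mir124-2hg, a host of the neuronal microRNA miR-124, averaged 0.442 and 1.45 FPKM in female and male serum and 8.23 and 14.6 FPKM in the motor neuron cultures (log2 change 2.67, SE 0.47, limma adjusted p = 0.00827). Mir17hg, the host of the miR-17 cluster, averaged 6.55 and 8.38 FPKM in serum and 2.28 and 1.01 FPKM in motor neuron cultures (log2 change -1.71, SE 0.41, limma adjusted p = 0.0209).

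The 1 motor neuron cell with Mir290 signal, from the female line, had Mir295 at 2291 FPKM, Mir294 at 1179 FPKM and Mir293 at 312.7 FPKM. In the same cell Pou5f1 was at 624.5 FPKM, Zfp42 at 35.1 FPKM, Sox2 at 26.6 FPKM, Tubb3 at 20.7 FPKM, Nanog at 0.15 FPKM and Sox17 at 0.102 FPKM.

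AU018091 was at 1 FPKM or more in every 2i cell, in 82.3% of female Epi cells and in 0 of 63 male Epi cells, which allows up to 4.76%. In the embryo AU018091 was detected in 91.3% of E3.5 cells, all E4.5 cells, 65% of female and 27% of male E5.5 cells.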
